A study of Mus musculus with 6 samples.

Results

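The miR-29 family was examined in mouse liver after chronic injury with carbon tetrachloride (CCl4), a solvent toxic to hepatocytes. The members were all mouse entries of the array named miR-29a, miR-29b or miR-29c, from either arm of the hairpin, which gave 7 of the 1247 miRNAs measured. Of these, 3 come from the 3p arm and 4 from the 5p arm. Livers came from male C57BL/6 mice of 2 groups, each with 3 mice and 1 array per mouse. Mice of the CCl4 group were injected intraperitoneally with CCl4 in corn oil at 0.6 mL/kg, 2 times a week for 10 weeks, starting at 7 weeks of age, and mice of the corn oil group received the same volume of corn oil. Livers were taken 48 h after the last injection and total RNA was labeled with Cy3, so every value below is a mean over all cell types of the liver. Fewer cells of a type and less RNA per cell cannot be told apart in such samples.

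miRNAs guide the Argonaute proteins to mRNAs that carry a match to the seed, the short stretch near the 5′ end of the miRNA, and lower their translation and stability. miR-29 is known for repressing mRNAs of the extracellular matrix, among them collagens type I, III and IV, fibrillin 1 and elastin, and loss of miR-29 in activated hepatic stellate cells has been described in fibrotic livers. The family therefore served to ask whether miRNAs that restrain the matrix differed between fibrotic and control livers.

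The family is encoded by 4 genes, named here by RefSeq (assembly GRCm38.p6), whose table held all 7 members and gave the sequences below. Mir29a and Mir29b-1 lie next to each other on the minus strand of chromosome 6, and Mir29b-2 and Mir29c on the plus strand of chromosome 1. The 3p members are shown first, since they carry the function of the family. Capitals mark the seed, bases 2 to 8 from the 5′ end.
mmu-miR-29a-3p: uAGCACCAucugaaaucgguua
mmu-miR-29b-3p: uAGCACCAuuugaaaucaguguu
mmu-miR-29c-3p: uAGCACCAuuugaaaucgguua

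The seed is the same in all 3, and of the 1679 mature mouse miRNA names in the sequence table no other holds it. Counted from the 5′ end and with the base of miR-29a-3p first, miR-29c-3p differs from miR-29a-3p by 1 base of 22, C10U. miR-29b-3p differs from miR-29a-3p by C10U, G18A, U21G and A22U and is 1 base longer. With the base of miR-29b-3p first, miR-29c-3p differs from it by A18G, G21U and U22A. How far a probe for one member also binds another was not tested.

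The 5p members come from the other arm of the same hairpins and are shown because they do not share a seed with each other or with the 3p members.
miR-29a-5p: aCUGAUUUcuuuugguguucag
miR-29b-1-5p: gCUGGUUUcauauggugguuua
miR-29b-2-5p: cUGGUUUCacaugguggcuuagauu
miR-29c-5p: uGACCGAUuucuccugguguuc

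miR-29b-3p has a pair of source genes, and the hairpins below show its sequence in capitals in both. The mature miRNA is identical from either gene, so that its signal on the array is the sum of Mir29b-1 and Mir29b-2.
Mir29b-1: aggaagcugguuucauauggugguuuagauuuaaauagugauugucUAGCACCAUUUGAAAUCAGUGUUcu
Mir29b-2: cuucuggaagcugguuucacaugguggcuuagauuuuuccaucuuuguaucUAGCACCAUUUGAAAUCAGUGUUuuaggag

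CCl4 replicate 3 stood apart from the other replicates of both groups. Its array detected 334 miRNAs, against 186 to 245 on the other arrays. Rank correlations were 0.979 between CCl4 replicates 1 and 2 and 0.985 to 0.989 among the corn oil arrays. The array of CCl4 replicate 3 correlated with the other CCl4 arrays at 0.856 and 0.860. miR-122-5p, the miRNA that defines hepatocytes, had a total signal of 2158 there and of 13110 to 18345 on the other 5 arrays. Spike-in controls, added for labeling and for hybridization, were also brightest on that array. Their log10 signal was 3.63 against 3.37 to 3.51 for labeling, and 4.49 against 4.30 to 4.38 for hybridization. How far the brightness of the array and the liver itself each enter its signals was not tested. The CCl4 arrays lay in one row of the slide and the corn oil arrays in the other, so that row and treatment cannot be told apart. The comparisons of the members below are therefore given with and without this liver, and the 3 arrays per group limit the precision of all of them.

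All 3 mature 3p members were detected in every liver, with all 40 spots of each well above background on every array. The values that follow are total signals, the intensity summed by the scanner software over the probes of a miRNA, before any normalization between arrays. mmu-miR-29a-3p (miR-29a-3p) was at 1210, 1110 and 1269 in the corn oil livers and at 1417, 1257 and 6777 in the CCl4 livers. The groups overlapped, because CCl4 replicate 2 was below corn oil replicate 3.

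mmu-miR-29b-3p had total signals of 319, 301 and 321 in corn oil livers and of 452, 408 and 3076 in CCl4 livers. Here every CCl4 liver was above every corn oil liver, and the corn oil livers were close together. Higher signals after CCl4 were general on this scale, with a median log2 change of 0.99 over the 166 miRNAs detected on all arrays. The share of all miRNAs without overlap was not computed for these signals. mmu-miR-29c-3p had total signals of 579, 506 and 561 in corn oil livers and of 411, 446 and 2593 in CCl4 livers. CCl4 replicates 1 and 2 were below all corn oil livers for this member, whereas CCl4 replicate 3 was far above them.

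CCl4 replicate 3 was thus the highest liver for each 3p member. Relative to the mean of the other CCl4 livers on the log2 scale, its total signal was 2.34 higher for miR-29a-3p, 2.84 higher for miR-29b-3p and 2.60 higher for miR-29c-3p. The median over the 166 miRNAs detected on all arrays was 1.36, and 36, 17 and 28 of the 166 miRNAs were as high as or higher than miR-29a-3p, miR-29b-3p and miR-29c-3p, with each member itself counted. miR-122-5p was at -2.73 on the same scale, the lowest of all 166.

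**Figure D1:**
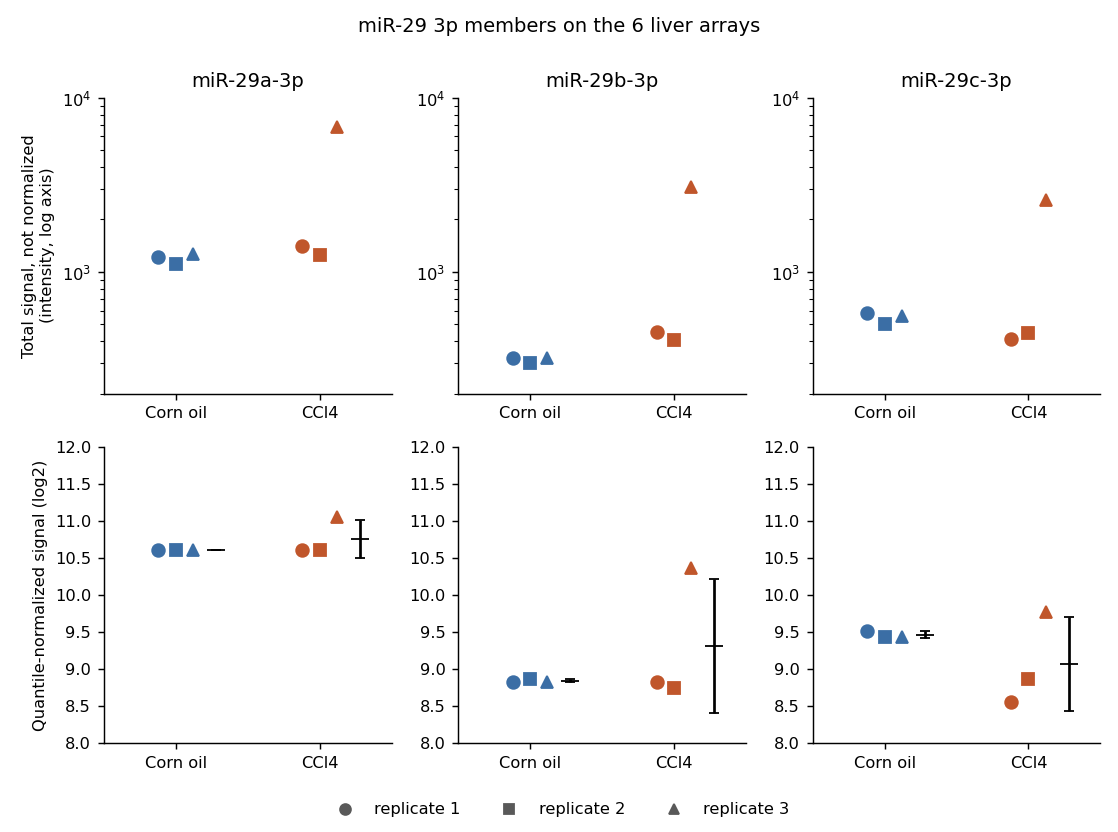
Signals of the 3p members in the 3 corn oil livers (blue) and the 3 CCl4 livers (orange). The upper row gives total signals before normalization on a log axis, where CCl4 replicate 3 (triangle) lies above all other livers, and the lower row gives log2 signals after quantile normalization with the mean and SD of each group beside the points.

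Before normalization the probes of each 3p member gave the same picture. Each member is read by 2 probes with 20 spots each. Within an array, the spots of a probe not flagged as outliers varied by a coefficient of variation of 1.58% to 10.7%. For miR-29c-3p the probe A_54_P2492 read 274, 234 and 269 in the corn oil livers and 194, 213 and 1231 in the CCl4 livers, and A_54_P2493 read 306, 271 and 292 against 216, 234 and 1361. Both probes placed CCl4 replicates 1 and 2 below every corn oil liver.

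For miR-29b-3p the dimmer probe, A_54_P1011, read 27.5, 27.2 and 28.7 in the corn oil livers and 40.0, 34.2 and 259 in the CCl4 livers. The brighter one, A_54_P1012, read 292, 274 and 293 against 412, 374 and 2818, so both placed every CCl4 liver above every corn oil liver. For miR-29a-3p, A_54_P2488 read 310, 280 and 327 against 368, 323 and 1698, and A_54_P2489 read 900, 830 and 942 against 1049, 934 and 5079.

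The share of the total signal that a probe held was also nearly constant. The first probe held 25.2% to 25.8% of the miR-29a-3p signal in the controls and 25.1% to 26.0% after CCl4. For miR-29b-3p these ranges were 8.62% to 9.03% and 8.37% to 8.85%, and for miR-29c-3p the CCl4 arrays, at 47.3% to 47.6%, lay within the range of the controls. The high signals of CCl4 replicate 3 were therefore read by both probes of each member.

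**Figure D2:**
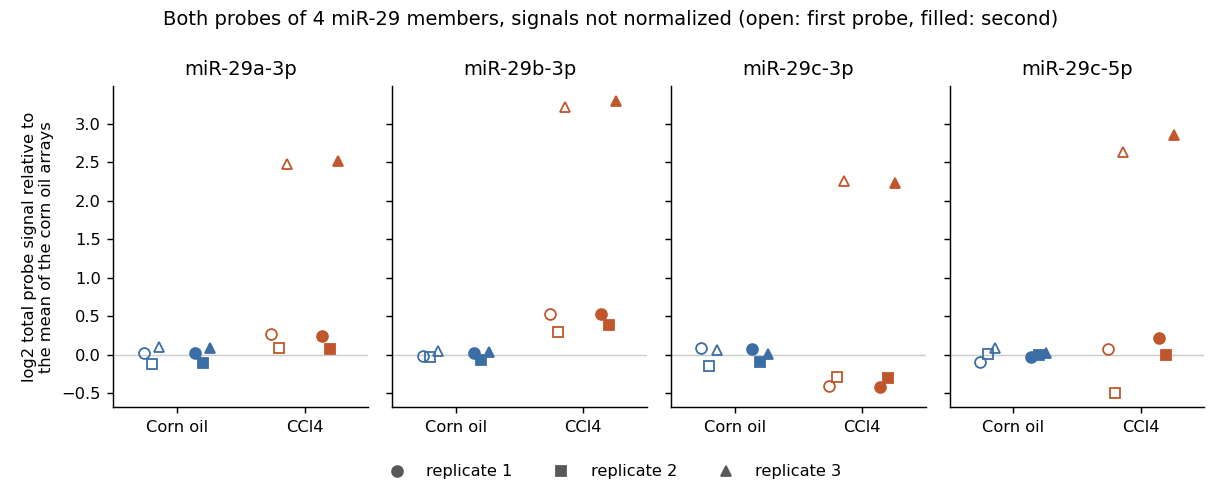
Total signal by probe, 2 probes for each 3p member and for miR-29c-5p, as log2 difference from the mean of the 3 corn oil arrays, before normalization. Open and filled symbols are the first and the second probe, and for the 3p members they move together on every array, with CCl4 replicate 3 (triangles) more than 2 log2 units above the mean of the corn oil arrays.

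To compare the groups, log2 total signals were quantile normalized, which gives every array the same distribution, and a limma fit was made over the 166 miRNAs flagged as detected in all 6 livers. Calls needed a change of more than 2-fold with an adjusted p below 0.05. No miR-29 member was called, in a comparison that called 12.0% of the miRNAs tested and in which 13.3% passed the adjusted p alone, and the groups overlapped for all 3 members where they did not overlap for 39.2% of the miRNAs. The fit compares levels within the pool of detected miRNAs, whose median change was -0.14.

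miR-29a-3p was at 10.62 ± 0.00 (log2, SD, n = 3) in the corn oil livers and at 10.77 ± 0.26 in the CCl4 livers. The SD of the corn oil group is 0 by construction, because miR-29a-3p held the same rank on each of these arrays and in CCl4 replicates 1 and 2. The log2 difference was 0.15 (SE 0.17, 95% interval -0.28 to 0.57, limma adjusted p = 0.57), and in this fit the interval held neither a rise nor a decrease of 2-fold.

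miR-29b-3p was at 8.83, 8.87 and 8.83 (log2) in the corn oil livers and at 8.83, 8.75 and 10.37 in the CCl4 livers. Only CCl4 replicate 3 stood above the corn oil livers after normalization. The log2 difference was 0.47 (SE 0.46, 95% interval -0.70 to 1.64, limma adjusted p = 0.52), a range wide enough to hold a rise of more than 2-fold. Fitted by probe after quantile normalization, it was 0.021 for A_54_P1011 (limma adjusted p = 0.99) and 0.64 for A_54_P1012 (adjusted p = 0.33). The probes gave 0.072 and 0.18 for miR-29a-3p, and -0.45 and -0.45 for miR-29c-3p.

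miR-29c-3p was at 9.52, 9.44 and 9.44 (log2) in the corn oil livers and at 8.55, 8.87 and 9.78 in the CCl4 livers. CCl4 replicates 1 and 2 were lower than all corn oil livers and CCl4 replicate 3 was higher than all of them. The log2 difference was -0.40 (SE 0.34, 95% interval -1.24 to 0.44, limma adjusted p = 0.46), which was smaller than the SD of 0.64 in the CCl4 group.

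The scaling between arrays moved all 3 differences. Without normalization the log2 differences were 0.94 for miR-29a-3p, 1.40 for miR-29b-3p and 0.51 for miR-29c-3p, while the median of all 166 miRNAs was 0.99. When arrays were scaled to the 75th percentile instead, they were -0.21, 0.24 and -0.64, with a median of -0.16. A scaling by 1 factor per array moves all members alike, so that their order is the same by construction in both of these. None of the 3 was called under either.

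The comparison was repeated without CCl4 replicate 3, over the 170 miRNAs detected on the remaining 5 arrays. miR-29c-3p then differed by -0.78 on the log2 scale after quantile normalization (SE 0.11, 95% interval -1.10 to -0.46, limma adjusted p = 0.011), a decrease that passed the adjusted p but not the 2-fold limit. In this fit 34.1% of all miRNAs tested were lower at the same adjusted p, 18.2% were higher and 52.4% passed in either direction. The difference was 0.00 for miR-29a-3p (limma adjusted p = 1.00) and -0.046 for miR-29b-3p (adjusted p = 0.37).

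The decrease of miR-29c-3p without CCl4 replicate 3 kept its direction and passed the adjusted p under 3 scalings, but its size changed. Without normalization it was -0.35 (limma adjusted p = 0.043), with 2.94% of the miRNAs lower at the adjusted p alone, 50.6% higher, 53.5% in all, and a median change of 0.45. When arrays were scaled to the 75th percentile it was -1.02 (limma adjusted p = 2.6e-03) and miR-29c-3p was called, as were 7.06% of the miRNAs in the same direction, with 41.2% of the miRNAs lower at the adjusted p, 20.6% higher and 61.8% in all. Since the spread of CCl4 replicates 1 and 2 alone enters these fits on the treated side, they describe a smaller set of livers than the comparison of all 6.

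The other 3p members turned with the scaling when CCl4 replicate 3 was left out. miR-29b-3p differed by 0.45 without normalization (limma adjusted p = 0.017), with 50.6% of all miRNAs higher, and by -0.21 with the 75th percentile (adjusted p = 0.12). miR-29a-3p differed by 0.16 without normalization (limma adjusted p = 0.27) and by -0.51 with the 75th percentile (adjusted p = 8.4e-03). No direction is given for either of them.

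**Figure D3:**
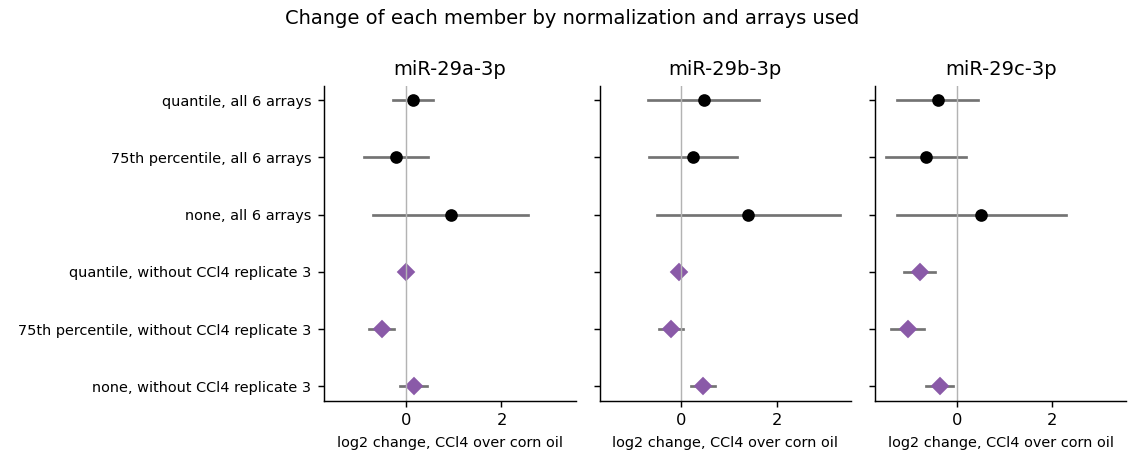
Log2 change of each 3p member, CCl4 over corn oil, with its 95% interval from limma, for 3 scalings of the arrays. Circles use all 6 arrays, where every interval includes 0, and diamonds leave out CCl4 replicate 3, where the interval of miR-29c-3p lies below 0 under each scaling, while the values of miR-29b-3p and miR-29a-3p change sign between scalings.

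A ratio of members within an array does not depend on a scaling by 1 factor per array, but quantile normalization can change it. After quantile normalization, corn oil replicate 1 and CCl4 replicate 1 had the same log2 levels of miR-29a-3p, 10.62, and of miR-29b-3p, 8.83. For that pair the groups thus overlapped on the normalized scale. By ratios of total signals before normalization, the CCl4 and corn oil livers did not overlap for any pair of 3p members. The same held for 49.0% of all pairs of miRNAs detected on all arrays. The ratio itself also holds the brightness of the probes, so that only its difference between livers can be read. The ratio of miR-29c-3p to miR-29b-3p was 1.81, 1.68 and 1.74 in the corn oil livers and 0.909, 1.09 and 0.843 in the CCl4 livers. All CCl4 livers were below all corn oil livers, and CCl4 replicate 3 was among them, next to the others of its group.

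As a log2 value the ratio of miR-29c-3p to miR-29b-3p was 0.80 ± 0.06 (SD, n = 3) in corn oil livers and -0.08 ± 0.19 in CCl4 livers. The geometric mean ratio was 1.85-fold lower in the CCl4 livers, a log2 difference of -0.89, and the groups were separated by a gap of 0.62. The two-sided exact permutation test gave p = 0.1, the smallest value that 3 livers against 3 allow, and 0.1 after Benjamini-Hochberg adjustment over the 3 pairs, so the test cannot pass 0.05 here.

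The gene of miR-29a-3p neighbours Mir29b-1, one of the sources of miR-29b-3p. The ratio of miR-29b-3p to miR-29a-3p was 0.264, 0.271 and 0.253 in the corn oil livers and 0.319, 0.325 and 0.454 in the CCl4 livers, a log2 difference of 0.46 or 1.37-fold (exact permutation p = 0.1, adjusted 0.1). Every CCl4 liver was above every corn oil liver. The ratio of miR-29c-3p to miR-29a-3p was 0.479, 0.456 and 0.442 in the corn oil livers and 0.290, 0.355 and 0.383 in the CCl4 livers, a log2 difference of -0.43 (exact permutation p = 0.1, adjusted 0.1). Here every CCl4 liver was below every corn oil liver, although the gap between the groups was only 0.21 on the log2 scale.

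Such a lack of overlap was frequent on these arrays. Among all 13695 pairs of the 166 miRNAs, the share without overlap was this 49.0%, and the median log2 difference, regardless of sign, was 0.77. A difference as large as that of miR-29c-3p to miR-29b-3p was seen in 44.2% of the pairs, and the corresponding shares were 67.6% for miR-29b-3p to miR-29a-3p and 69.4% for miR-29c-3p to miR-29a-3p. Pairs of liver miRNAs that differed as much as the miR-29 members were thus common.

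The differences between the groups were similar when single probes were used. For each pair of members there are 4 pairs of probes, and the groups did not overlap for any of them. The log2 difference was between 0.40 and 0.46 for miR-29b-3p to miR-29a-3p, between -0.44 and -0.42 for miR-29c-3p to miR-29a-3p and between -0.90 and -0.83 for miR-29c-3p to miR-29b-3p.

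A limma fit was also run with each array expressed relative to 1 member, which gives the ratios a spread moderated over all other miRNAs. miR-29c-3p relative to miR-29b-3p differed by -0.89 (SE 0.24, 95% interval -1.47 to -0.31, limma adjusted p = 0.11), which missed the threshold in a fit where 2.42% of the miRNAs passed it. Relative to miR-29a-3p the differences were 0.46 for miR-29b-3p (95% interval -0.06 to 0.97, limma adjusted p = 0.31) and -0.43 for miR-29c-3p (95% interval -0.89 to 0.03, adjusted p = 0.28), with 7.88% of the miRNAs past the adjusted p.

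Without CCl4 replicate 3 the log2 differences of the ratios were -0.81 for miR-29c-3p to miR-29b-3p, 0.29 for miR-29b-3p to miR-29a-3p and -0.51 for miR-29c-3p to miR-29a-3p. The groups then did not overlap for 74.5% of the 14365 pairs of miRNAs.

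**Figure D4:**
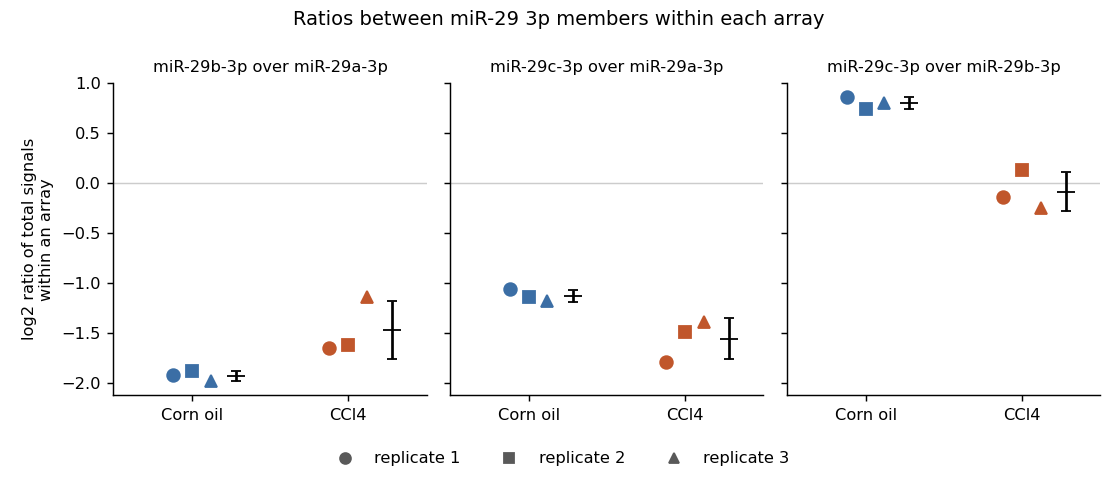
Log2 ratio of the total signals of 2 miR-29 3p members within each array, for the 3 corn oil livers (blue) and the 3 CCl4 livers (orange), with the mean and SD of each group. The groups do not overlap in any panel, and for miR-29c-3p over miR-29b-3p the means are 0.80 and -0.08.

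The 5p arms, which are usually degraded after processing of the hairpin, were near or below the detection limit. miR-29a-5p and miR-29b-2-5p were detected in none of the 6 livers. miR-29b-1-5p was detected in CCl4 replicate 3 alone, with a total signal of 6.73 and 10 of 40 spots well above background. All 10 of these spots belonged to 1 of its 4 probes, A_54_P3268, which read 0.823, 0.846 and 0.673 in the corn oil livers and 1.16 and 1.09 in the other CCl4 livers.

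miR-29c-5p was flagged as detected in 5 livers, with total signals of 3.81, 3.86 and 3.96 after corn oil and of 4.49 and 40.8 in CCl4 replicates 1 and 3, and was undetected in CCl4 replicate 2. None of its 40 spots was well above background on any corn oil array, and 4, 1 and 39 were so on the CCl4 arrays. Its signal was thus measured clearly in CCl4 replicate 3 alone, where both probes read it, with 12.8 for A_54_P3466 and 28.0 for A_54_P3467. No direction of change is read for the 5p members, because no group held any of them well above background on all of its arrays.

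The levels of the 3p members were set beside lists of miRNAs that mark the cell types of the liver. The summed signal of 6 hepatocyte miRNAs was 18951 to 20852 in the corn oil livers and 14972, 17752 and 2750 in the CCl4 livers, and all 6 were detected on at least 5 arrays. The summed signal of the 8 mesenchymal miRNAs on the array, which are expressed by stellate cells and fibroblasts, was 340 to 463 in the corn oil livers and 1283, 666 and 4839 in the CCl4 livers. The hepatocyte sum was thus lowest and the mesenchymal sum highest in CCl4 replicate 3, the liver with the highest miR-29 signals. These sums are not normalized, and the summed signal of all detected miRNAs was 316413 on that array and 167865 to 177351 on the others.

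The sum of 7 immune miRNAs was 101 to 119 in the corn oil livers and 577, 429 and 694 in the CCl4 livers. The sum of 2 endothelial miRNAs, both arms of miR-126, was 563 to 677 against 824, 821 and 3732. The sum of 3 red cell miRNAs was 466 to 754 against 730, 315 and 2144. No marker of these lists that is on the array was undetected in every liver, and the part of cell composition in the miR-29 values was not tested. The immune, endothelial and red cell sums were also highest in CCl4 replicate 3.

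After quantile normalization the median log2 change was -1.73 for the 4 hepatocyte miRNAs in the fit and 0.88 for the 7 mesenchymal miRNAs, with -0.14 over all 166. Of the hepatocyte miRNAs 0 were called, and of the mesenchymal miRNAs 2 were called higher, miR-199a-5p and miR-199b-5p, which share a seed. Of all 166 miRNAs 7.23% were called higher and 4.82% lower. Medians were 0.69 for 4 immune, -0.55 for 2 red cell and 0.13 for 2 endothelial miRNAs, with no calls. Without CCl4 replicate 3 the hepatocyte median was -0.52 and the mesenchymal median 0.41, over 6 and 7 miRNAs. At the adjusted p alone 3 hepatocyte miRNAs were then lower and 0 higher, and 1 mesenchymal miRNA was lower and 2 higher, beside the 34.1% lower and 18.2% higher among all. Of the 4 immune miRNAs, 0 were lower and 3 higher in that fit, with a median of 0.94. No red cell or endothelial miRNA passed.

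miR-29 was also set beside other miRNAs linked to fibrosis in earlier work, in lists chosen with earlier results of these data known. The study had already called miR-378a-3p lower and miR-34a-5p higher on these same arrays. Their calls below are therefore not independent of the choice of the lists. Of 13 miRNAs described as restraining matrix or fibrosis, 11 were in the fit. Of these, 0 were called higher and 1, miR-378a-3p, was called lower, beside 7.23% and 4.82% of all 166 miRNAs. The median log2 change was -0.37, against -0.14 over all of them. Without CCl4 replicate 3 the median was -0.12, that of all miRNAs in that fit being -0.12 as well. After quantile normalization the log2 level of miR-378a-3p fell by 1.37 (limma adjusted p = 0.011), while the difference was 0.03 without normalization. With the 75th percentile it was -1.13 (limma adjusted p = 0.035), and without CCl4 replicate 3 it was -1.22 (adjusted p = 4.9e-03). The log2 changes of the miR-29 3p members lay on both sides of -0.14, the median change of all 166 miRNAs in the fit of all 6 livers.

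Of 11 miRNAs described as profibrotic or raised in activated stellate cells, 8 were in the fit. Of these, 3 were called higher and 0 lower, beside 7.23% and 4.82% of all 166 miRNAs. The median log2 change was 1.27, or 1.11 without CCl4 replicate 3, against -0.14 and -0.12 over all miRNAs. At the adjusted p alone, without CCl4 replicate 3, 6 were higher and 1 lower, beside 18.2% and 34.1% of all miRNAs. Not every member rose in the fit of all 6 livers. miR-21a-5p changed by -0.30 and miR-27b-3p by -0.22, each with a limma adjusted p of 0.77. miR-34a-5p, a target of p53, had total signals of 47.9, 29.9 and 29.3 in the corn oil livers and of 219, 158 and 752 in the CCl4 livers and rose by 1.71 on the log2 scale (limma adjusted p = 0.026). miR-199b-5p read 10.4, 7.11 and 11.3 against 125, 40.8 and 268 and rose by 2.28 (adjusted p = 0.016), with 45% to 52.5% of its spots well above background in each corn oil liver. miR-199a-5p read 12.0, 10.5 and 16.6 against 90.6, 38.5 and 143 and rose by 1.34 (adjusted p = 0.032), with 1 of its 2 probes well above background on each corn oil array. The size of both changes rests on corn oil signals near background. Both miR-199 miRNAs are on the mesenchymal list as well. These 3 miRNAs were also higher at an adjusted p under 0.05 without normalization, with the 75th percentile and without CCl4 replicate 3.

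The miRNAs with the profile most like that of each member were found by the root mean square difference of the centered log2 signals over the 6 livers after quantile normalization. The nearest to miR-29a-3p were miR-331-3p (0.076), let-7f-5p (0.080) and let-7d-5p (0.092). The nearest to miR-29b-3p were miR-374c-5p (0.025), let-7a-5p (0.090) and miR-1839-5p (0.14). The nearest to miR-29c-3p were miR-3069-3p (0.097), miR-151-5p (0.12) and miR-361-5p (0.13).

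No miR-29 member was among these. In the order of likeness over the 165 other miRNAs, miR-29b-3p was number 62 and miR-29c-3p number 44 for miR-29a-3p, with differences of 0.41 and 0.36. For miR-29b-3p, miR-29a-3p was number 28 and miR-29c-3p number 42, the latter with a difference of 0.48. For miR-29c-3p, miR-29a-3p was number 37 and miR-29b-3p number 61. These profiles share the arrays and their normalization, and CCl4 replicate 3 contributes the largest deviation of miR-29a-3p and miR-29b-3p, so the order of likeness is a description of these 6 livers.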

How the data were processed

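Each of the 6 livers was hybridized to its own array, and groups and replicate numbers follow the sample labels. The authors extracted the scanner images with Agilent Feature Extraction 11.0.1.1 and deposited linear intensities with the background subtracted and no normalization between arrays, with detection flags, where an undetected total is set to 0.1. They also deposited quantile-normalized intensities of 111 miRNAs, used as an alternative here. Members were taken by name, and the total signals of miRNAs detected on all 6 arrays were log2 transformed, quantile normalized and fitted with limma 3.58.1 in R 4.3.3, with Benjamini-Hochberg adjustment over all 166. Filter, quantile normalization, limma and the 2-fold limit follow the study's methods, which do not name a scale for the normalization, and the deposited values match normalization on the linear scale. The detection filter kept 166 miRNAs here, more than the 111 with deposited normalized values, and the reason was not tested. The fit was tested on simulated data. Ratios within arrays were compared by an exact two-sided permutation test (scipy 1.17.1, Python 3.11.15). Named miRNAs are the members, miR-122-5p, called list members and the 3 nearest profiles of each 3p member. miR-21a-5p and miR-27b-3p of the profibrotic list are named as well. The members and lists were chosen with earlier results of these data known. Replicates are separate mice. Correlations of the deviations of equally numbered livers were -0.18, 0.11 and 0.03, and those of unequally numbered livers were -0.27 to 0.24. These values show no pairing by number, but with 3 livers per group they cannot exclude it. Coordinates are not given, since the scanner output names another build than the sequence table. Alternatives covered scaling, filter, probes, deposited values, the block and each array left out. Ranks in the deposited normalized columns of corn oil 1, 2 and 3 are those of scanner arrays 2, 3 and 1.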

Additional observations from a re-analysis of the deposited data

Results flagged for a closer look

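Signals of 5p members appeared on CCl4 arrays while no spot of the same members was well above background on any corn oil array. miR-29c-5p had a total signal of 40.8 on the array of CCl4 replicate 3, with 39 of 40 spots well above background, and of 4.49 on that of CCl4 replicate 1, with 4 of 40 spots. The total signal of miR-29b-1-5p on the array of CCl4 replicate 3 was 6.73, with 10 of 40 spots. The total signals of miR-29c-5p on the corn oil arrays were 3.81 to 3.96. Neither member entered the fit over miRNAs detected on all arrays. In fits that put undetected totals at the lowest detected signal of their array, the log2 change of miR-29c-5p was -0.60 with miRNAs detected in all livers of at least 1 group (limma adjusted p = 0.58) and -0.95 without detection filter (adjusted p = 0.39), where that of miR-29b-1-5p was 0.069 (adjusted p = 0.39). Without CCl4 replicate 2, where all totals of miR-29c-5p were detected, its log2 change was 1.04 (limma adjusted p = 0.30). These changes rest on totals put at the lowest detected signal or on corn oil signals not well above background. No direction is therefore read from them.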

How the results depend on the processing

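Over 18 alternatives each, miR-29a-3p kept its direction and stayed uncalled in 15, miR-29b-3p in 16 and miR-29c-3p in 16. A call needs the adjusted p and the 2-fold limit together. Among the alternatives counted as kept, miR-29c-3p passed the adjusted p alone without CCl4 replicate 3, both with quantile normalization and without normalization. miR-29b-3p did so without CCl4 replicate 3 and without normalization. The miR-29 ratios kept their direction in alternatives that all used signals before normalization between arrays. Leaving out an array or the block could not turn it, since the groups do not overlap. After quantile normalization without CCl4 replicate 3, miR-29b-3p changed by -0.046 and miR-29a-3p by 0.00. The direction of miR-29b-3p relative to miR-29a-3p was thus not kept in that fit. Normexp on the mean spot signal was not run, because the scanner output used here holds the median only. That on the median signal, the single probe pairs, the fits relative to a member and those combining a scaling with the removal of CCl4 replicate 3 were chosen after seeing the data.

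The change of miR-29c-3p turned to 0.51 without normalization and that of miR-29a-3p to -0.21 with the 75th percentile. Over the fits that left out 1 array each, the changes lay between 0.00 and 0.23 for miR-29a-3p, between -0.046 and 0.76 for miR-29b-3p and between -0.78 and -0.14 for miR-29c-3p, with 0 members called. In each case the value farthest below the others came from the fit without CCl4 replicate 3, with 0.00, -0.046 and -0.78. Without that liver and with the 75th percentile they were -0.51, -0.21 and -1.02, and 1 member was called, miR-29c-3p, beside 7.06% of all miRNAs called lower. With normexp the log2 difference of the miR-29c-3p to miR-29b-3p ratio was -0.70. The cause of these shifts was not tested.

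Of all miRNAs tested, 20 were called, 12 higher. The count was 12 with the deposited values, 32 with miRNAs detected in all livers of at least 1 group, 6 without filter, 4 with normexp, and 43 without CCl4 replicate 3 and normalization. Without normalization 18 were called, all higher. Leaving out 1 array gave 5 to 28, with 5 without CCl4 replicate 1, 6 or 7 without a corn oil liver and 28 without CCl4 replicate 3. With the replicate number as a block 6 were called and no member, with changes of 0.15, 0.47 and -0.40 for miR-29a-3p, miR-29b-3p and miR-29c-3p. The block left the log2 differences of the ratios at 0.46, -0.43 and -0.89, with an exact permutation p of 0.25, the smallest that 3 pairs allow.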
